A study of Mus musculus with 6 samples.

Results

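The CXC and CX3C chemokines of the mouse hippocampus were followed here as 10 genes taken by name from the deposited gene table: Cxcl1, Cxcl2, Cxcl5, Cxcl9, Cxcl10, Cxcl12, Cxcl13, Cxcl14, Cxcl16 and Cx3cl1. All 10 names were found, each on 1 row, among 41386 genes. Their mRNA was measured by RNA-seq in 3 libraries after cerebral ischemia/reperfusion (I/R) and in 3 libraries after sham operation. The I/R mice underwent focal middle cerebral artery occlusion for 1.5 h and then 24 h of reperfusion. Every animal was a wild type male C57BL/6 mouse (C57BL/6J in the methods) aged 56 days, and the ipsilateral hippocampus was taken. The 10 genes lie on chromosomes 5, 6, 8, 11 and 13, with 6 of them on chromosome 5. Each library held a pool of 3 hippocampi, and replicate error here is the scatter of pools rather than of individual mice. The comparison asked which chemokine genes differed in mRNA level between I/R and sham. In such bulk tissue, fewer cells of a type and less RNA per cell cannot be told apart.

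Chemokines are small proteins that guide migrating cells through receptors of the G protein-coupled class, and the CXC and CX3C families are named after the spacing of their conserved cysteines. Cxcl1, Cxcl2 and Cxcl5 attract neutrophils through Cxcr2, Cxcl9 and Cxcl10 are interferon-induced ligands of Cxcr3 on T cells and NK cells, Cxcl12 signals through Cxcr4, and Cxcl13 draws B cells through Cxcr5. Cxcl16, the ligand of Cxcr6, and Cx3cl1 (fractalkine), the ligand of Cx3cr1, are made as membrane-anchored proteins that proteases can shed, and in the brain Cx3cl1 is known as a neuronal signal to microglia.

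The promoters of 4 members are shown because these genes had large changes in opposite directions, a choice made after their values were seen: the Cxcr2 ligands Cxcl1 and Cxcl2, the Cxcr3 ligand Cxcl10, and Cx3cl1. They are RefSeq sequences on build GRCm38.p6, from 250 bases before to 50 bases after the transcription start, at chr5:90890995-90891294 (plus strand), chr5:90903649-90903948 (plus strand), chr5:92348840-92349139 (minus strand) and chr8:94771930-94772229 (plus strand). Capitals mark matches on either strand to the NF-kB consensus, to the core of the interferon-stimulated response element (ISRE), GAAANNGAA, or to the AP-1 site, TGANTCA.
Cxcl1: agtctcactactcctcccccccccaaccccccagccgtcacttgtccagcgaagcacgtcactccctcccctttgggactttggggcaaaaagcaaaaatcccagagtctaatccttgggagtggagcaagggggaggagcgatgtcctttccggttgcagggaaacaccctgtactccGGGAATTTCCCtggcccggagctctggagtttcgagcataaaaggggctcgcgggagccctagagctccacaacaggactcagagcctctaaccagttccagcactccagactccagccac
Cxcl2: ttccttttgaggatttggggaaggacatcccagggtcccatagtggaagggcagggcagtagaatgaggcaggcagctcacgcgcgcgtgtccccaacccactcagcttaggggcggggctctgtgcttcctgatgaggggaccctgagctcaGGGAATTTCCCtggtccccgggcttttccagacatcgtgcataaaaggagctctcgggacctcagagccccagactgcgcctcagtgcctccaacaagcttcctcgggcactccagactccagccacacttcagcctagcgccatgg
Cxcl10: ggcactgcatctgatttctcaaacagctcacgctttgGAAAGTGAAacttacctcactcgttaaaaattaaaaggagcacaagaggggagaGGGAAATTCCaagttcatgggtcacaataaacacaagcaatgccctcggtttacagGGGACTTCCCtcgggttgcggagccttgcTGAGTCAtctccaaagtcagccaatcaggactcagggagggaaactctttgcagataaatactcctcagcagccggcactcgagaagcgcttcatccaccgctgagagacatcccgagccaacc
Cx3cl1: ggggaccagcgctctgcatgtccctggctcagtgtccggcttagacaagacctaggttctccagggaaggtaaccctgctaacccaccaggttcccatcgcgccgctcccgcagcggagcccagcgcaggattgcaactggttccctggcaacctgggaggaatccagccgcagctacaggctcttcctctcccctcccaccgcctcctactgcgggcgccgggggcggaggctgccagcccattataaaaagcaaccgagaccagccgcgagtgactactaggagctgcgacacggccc

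The same run of 11 letters, GGGAATTTCCC, lay 71 bases before the start of Cxcl1 and 97 bases before the start of Cxcl2. In each it held a pair of overlapping NF-kB matches, on opposite strands. Cxcl10 had the ISRE core 213 bases before its start, NF-kB matches at 159 and 103 bases and an AP-1 match at 74 bases. Cx3cl1 had no match to any of the 3 motifs in this window. RefSeq promoters were found for 8 of the 10 members, not for Cxcl5 and Cxcl16. The NF-kB consensus was in 3 of these 8 (Cxcl1, Cxcl2 and Cxcl10), the ISRE core in 3 (Cxcl9, Cxcl10 and Cxcl14) and the AP-1 site in 2 (Cxcl9 and Cxcl10). Among 32851 promoters of the same length, 4.51% held the NF-kB consensus, 8.56% the ISRE core and 7.81% the AP-1 site. Such a match is a description of letters and not of binding.

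Total counts per library were 37493042 to 44788547. Levels are given as counts per 1e6 (CPM), after TMM scaling, which trims extreme genes before setting library sizes, and 3 counts, taken as the detection floor, stood for 0.0659 to 0.0872 CPM. A gene was called higher or lower in I/R when the edgeR adjusted p was under 0.05 with more than a 1.2-fold change. Of the 18569 genes tested, 41.8% were called, 21.8% higher and 19.9% lower. Counts of called genes in the lists below stand beside these shares. The median log2 ratio of all tested genes was 0.03 with this scaling and 0.28 with library size only, and changes are relative to that shift. Markers of hippocampal granule and pyramidal cells were present in every library, at a sum of 655 to 678 CPM in sham and 180 to 325 CPM in I/R, and 5 of 5 were called lower. Choroid plexus markers summed to 140 CPM in I/R replicate 3 and 173 CPM in sham replicate 1, against 2262 to 6221 CPM in the other libraries, and 1 of 8 was called lower. Of the lists with mixed directions, astrocyte markers had 2 called higher and 2 lower of 5, and mural cell and fibroblast markers 5 higher and 2 lower of 7. Oligodendrocyte markers had 1 called lower of 4, and the erythrocyte marker tested was not called.

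Of the 10 chemokines, 8 passed the count filter. Against the share of 41.8% of all genes called, 7 of these 8 were called, 5 higher (21.8% of all genes) and 2 lower (19.9%). The groups did not overlap in CPM for 7 of the 8, against 57.4% of all genes tested. Cxcl1, Cxcl2, Cxcl5 and Cxcl10 passed the filter only through the I/R libraries, and genes that pass in this way had to differ between the groups. These counts, and the p-values and intervals of those genes below, are given as a description.

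**Figure D1:**
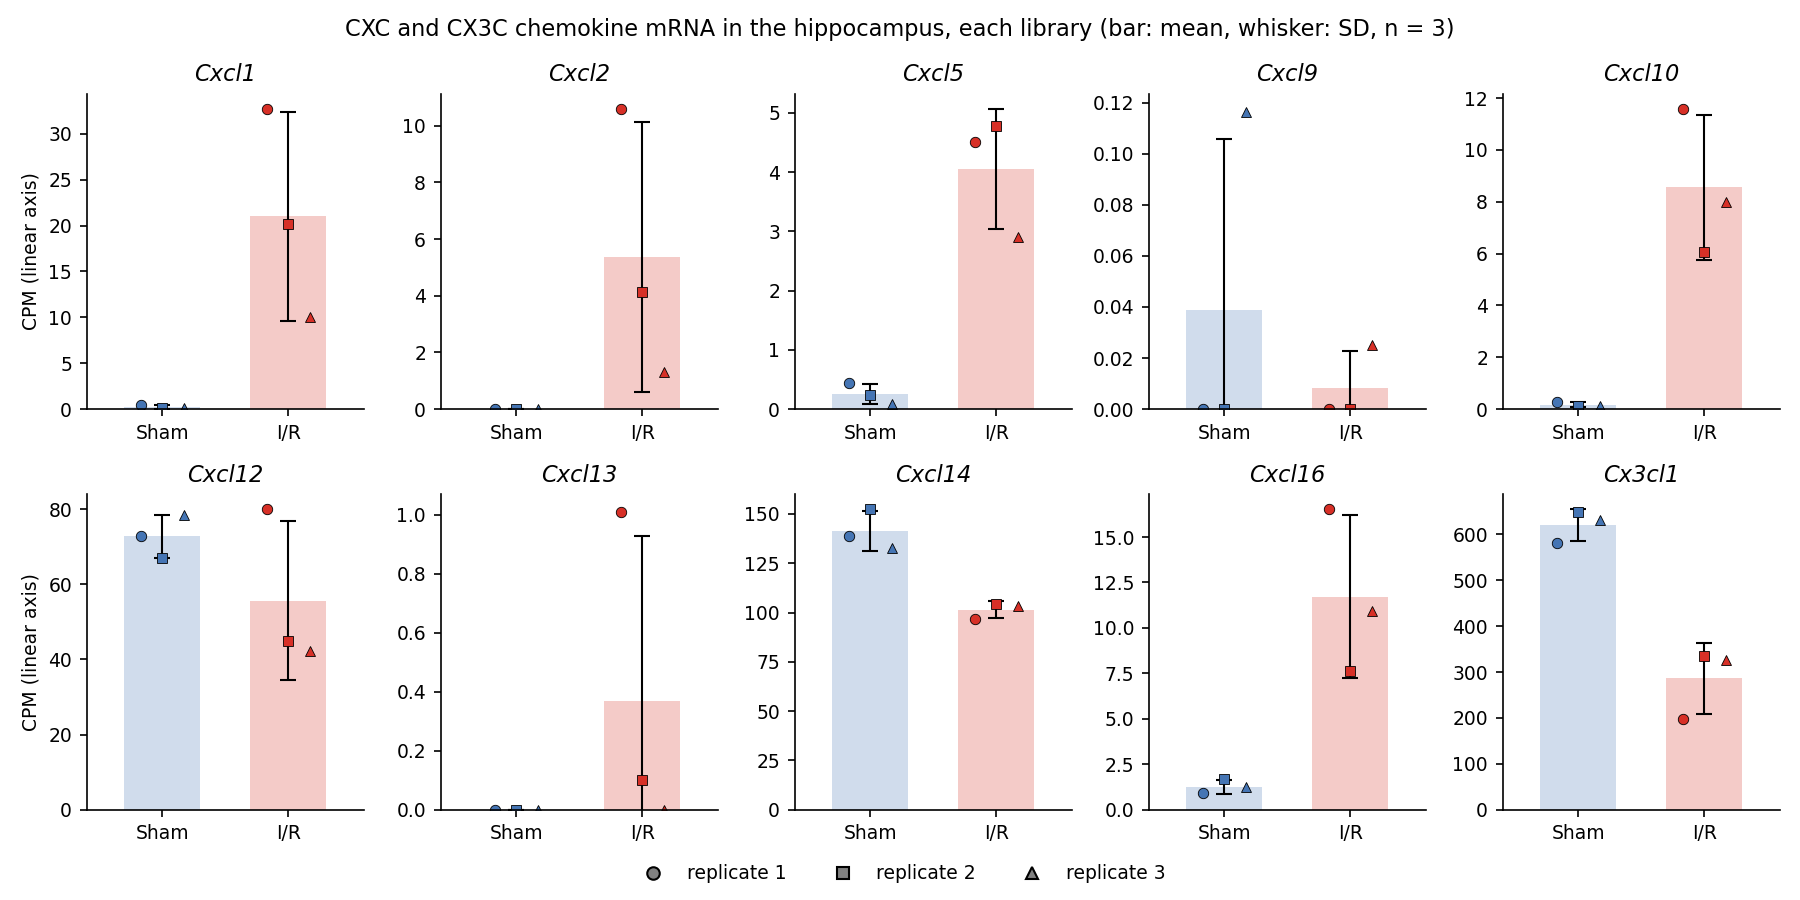
CPM of the 10 chemokines in each library, 1 panel per gene, on linear axes that start at 0 and differ between panels. Bars are means, whiskers SD of 3 libraries, and the marker shape gives the replicate. Cxcl1, Cxcl2, Cxcl5, Cxcl10 and Cxcl16 lay near 0 in sham and higher in all 3 I/R libraries, Cxcl14 and Cx3cl1 were lower in all 3, and Cxcl12 of I/R replicate 1 lay above every sham library.

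The neutrophil-attracting ligands of Cxcr2 were nearly absent from sham hippocampus and present in every I/R library. Cxcl1 (chromosome 5, 89257869 to 89259743 on the plus strand; gene positions are on the BALB/cJ assembly of the table, another build than that of the promoters) had 1490, 808 and 402 counts in I/R replicates 1, 2 and 3 and 17, 3 and 5 counts in sham replicates 1, 2 and 3. In CPM this was 32.7, 20.2 and 10.05 for I/R against 0.435, 0.0738 and 0.145 for sham. The lowest I/R library still lay far above the highest sham library, and the I/R libraries themselves differed 3.26-fold. The mean rose from 0.218 ± 0.192 to 21 ± 11.4 CPM (SD, n = 3 each), with a log2 ratio of I/R over sham of 6.56 ± 0.64 SE (95% confidence interval 5.09 to 8.04, adjusted p = 0.000488 by edgeR). Sham replicate 1 held most of the sham counts, and leaving it out raised the log2 ratio to 7.57.

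Cxcl2, a close relative of Cxcl1 at 89270459 to 89272526 on the same strand of chromosome 5, had 483, 165 and 53 counts in I/R and 0 counts in each sham library. A count of 0 allowed up to 0.0738 to 0.0872 CPM in those sham libraries. The I/R levels were 10.6, 4.13 and 1.33 CPM, an 8.01-fold range with replicate 1 highest, and no library overlapped between the groups. With sham set to its floor of 3 counts per library, the I/R mean of Cxcl2 exceeded sham at least 67.5-fold (5.36 ± 4.76 CPM, SD, n = 3), and at least 34.4-fold without I/R replicate 1. It was called higher (adjusted p = 0.00400 by edgeR), but not when no count filter was used (adjusted p = 0.0692 by edgeR). Of the 50-base stretches of its transcripts, 5.84% also lay in transcripts of Cxcl3, so reads could in part be split between these genes.

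Cxcl5 (chromosome 5, 89125105 to 89127227, plus strand), another ligand of this receptor, gave 205, 191 and 116 counts across the I/R replicates, against 17, 10 and 3 across the sham replicates. The I/R levels of 4.50, 4.78 and 2.90 CPM lay closer together than those of Cxcl1 and Cxcl2, and all exceeded the sham levels of 0.435, 0.246 and 0.0872 CPM. The mean rose from 0.256 ± 0.174 to 4.06 ± 1.01 CPM (SD, n = 3 each), with a log2 ratio of 3.95 ± 0.47 SE (adjusted p = 0.000920 by edgeR). Without sham replicate 1 it was 4.54. The order of the I/R libraries differed between these genes. Relative to Cxcl1, the counts of Cxcl2 were 0.324, 0.204 and 0.132 in I/R replicates 1, 2 and 3, whereas those of Cxcl5 were 0.138, 0.236 and 0.289.

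Some genes of the neutrophil marker list rose beside these ligands. The summed level of the list was 39.1, 10.5 and 10.5 CPM in I/R replicates 1, 2 and 3 and 4.48 to 5.89 CPM in sham, and no marker was at 0 in every library. Of the 6 tested, 4 were called higher (S100a8, S100a9, Mmp8 and Retnlg), all of which fell short of the count filter in sham and passed through I/R. Each kept its call in 6 (S100a8), 5 (S100a9), 4 (Retnlg) and 2 (Mmp8) of the 6 fits with a library left out. Mpo and Csf3r were not called. Only Csf3r passed the filter in sham alone, and it made up most of the sham sum. Its levels were 8.11, 2.08 and 3.88 CPM in I/R replicates 1, 2 and 3 against 4.15, 3.59 and 3.90 CPM in sham. Of the listed markers that were not tested, Ly6g had 1, 0 and 0 counts and Elane 1, 1 and 1 counts in I/R and both had 0 in sham. The part of neutrophils in the result was not tested.

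Of the Cxcr3 ligands, Cxcl10 rose after I/R and Cxcl9 was at or near the detection floor. Cxcl10 (chromosome 5, 90698217 to 90700463 on the minus strand) gave 528, 243 and 320 counts across the I/R replicates, against 11, 5 and 4 across the sham replicates. These were 11.6, 6.08 and 8.002 CPM (I/R) against 0.282, 0.123 and 0.116 CPM (sham). The groups did not overlap, and the I/R libraries differed 1.91-fold. The mean rose from 0.174 ± 0.0937 to 8.56 ± 2.80 CPM (SD, n = 3 each), with a log2 ratio of 5.59 ± 0.41 SE (95% confidence interval 4.63 to 6.54, adjusted p = 0.000266 by edgeR). Cxcl10 overlaps Art3 on the opposite strand, and 3.59% of the 50-base stretches of its transcripts are shared with that gene. Use of strand in counting is not given in the sources used here. Art3 gave 57, 87 and 97 counts across the I/R replicates, against 119, 116 and 71 across the sham replicates, fewer than Cxcl10 in each I/R library and more in each sham library.

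Cxcl9 (chromosome 5, 90672575 to 90679252, minus strand) gave 0, 0 and 1 counts across the I/R replicates, against 0, 0 and 4 across the sham replicates, and a difference was not detectable at this depth. Its inducer Ifng, interferon gamma, had 1 count in 1 I/R library and 0 in the others. Among T cell and NK cell markers only Lck passed the count filter, called higher at 3.42 ± 0.252 CPM (I/R) against 1.47 ± 0.713 CPM (sham). That call was lost without I/R replicate 2 or 3 or sham replicate 2 (adjusted p from 0.0575 to 0.0825 by edgeR). The remaining 6 markers of that list, Cd3e and Cd8a among them, had at most 9 counts in any library.

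Cxcl12, Cxcl13 and Cxcl14 are ligands with homeostatic roles. Neither Cxcl12 nor Cxcl14 was called higher, and Cxcl13 was not tested. Cxcl12 (chromosome 6, 115059791 to 115072614, plus strand), which positions granule cell precursors and is made by vessels and meninges, gave 3644, 1791 and 1687 counts across the I/R replicates, against 2841, 2724 and 2702 across the sham replicates. In CPM this was 80.1, 44.8 and 42.2 (I/R) against 72.8, 67.0 and 78.5 (sham). I/R replicates 2 and 3 lay below every sham library and I/R replicate 1 above every sham library, so the groups overlapped. The means of 55.7 ± 21.2 CPM in I/R against 72.8 ± 5.75 CPM in sham (SD, n = 3 each) gave a log2 ratio of -0.39 ± 0.23 SE with a 95% confidence interval of -0.92 to 0.15 (adjusted p = 0.218 by edgeR). Without I/R replicate 1 it was -0.75 and was called lower (adjusted p = 5.84e-06 by edgeR). Endothelial markers, of which 5 of 6 were called higher and 1 lower (Tek and Slco1a4 kept theirs in 3 of 6 fits with a library left out), also had their largest sum in I/R replicate 1, at 502, 401 and 335 CPM in I/R against 245 to 249 CPM in sham. Their part in the level of Cxcl12 was not tested.

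Cxcl13 (chromosome 5, 94617898 to 94622015, plus strand) gave 46, 4 and 0 counts across the I/R replicates, against 0 for every sham library, so nearly all of its counts came from I/R replicate 1, and it did not pass the count filter. B cell markers summed to 1.12, 0.625 and 0.500 CPM in I/R replicates 1, 2 and 3 and to 0.465 to 0.714 CPM in sham, and the only one tested, Cd79a, was not called.

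Cxcl14 (chromosome 13, 53988937 to 53996841, minus strand), a chemokine of epithelia that is also made by hippocampal interneurons, gave 4402, 4171 and 4136 counts across the I/R replicates, against 5415, 6196 and 4570 across the sham replicates. The I/R levels of 96.7, 104 and 103 CPM had a 1.08-fold range, the narrowest of the 8 members tested, and lay below the sham levels of 139, 152 and 133 CPM. The mean was 101.5 ± 4.17 CPM (I/R) against 141 ± 10.1 CPM (sham), as mean ± SD of 3 libraries each, with a log2 ratio of -0.48 ± 0.09 SE (95% confidence interval -0.68 to -0.28, adjusted p = 0.00400 by edgeR). This call depended on scaling: with library size only the log2 ratio was -0.22 (adjusted p = 0.0490 by edgeR), under the fold rule, and on log2 of FPKM plus 1 it was -0.22 (adjusted p = 0.0536 by limma). Interneuron markers summed to 854 to 925 CPM in I/R and 1103 to 1161 CPM in sham, with 4 of 7 called lower (Gad1, Slc32a1, Pvalb and Sst). Gad1 and Pvalb kept that call in 2 of 6 fits with a library left out. Gad2, Vip and Reln were not called, at log2 ratios of -0.12, 0.10 and -0.20. The part of interneurons in the difference of Cxcl14 was not tested.

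The membrane-anchored chemokines moved in opposite directions. Cxcl16 (chromosome 11, 68613571 to 68619185, minus strand), which also acts as a scavenger receptor for oxidised lipoprotein, gave 753, 306 and 438 counts across the I/R replicates, against 35, 68 and 42 across the sham replicates. Levels were 16.5, 7.66 and 10.9 CPM (I/R) against 0.897, 1.67 and 1.22 CPM (sham), with no overlap. The mean rose 9.27-fold, from 1.26 ± 0.390 to 11.7 ± 4.49 CPM (SD, n = 3 each), with a log2 ratio of 3.21 ± 0.35 SE (95% confidence interval 2.40 to 4.02, adjusted p = 0.000686 by edgeR). It passed the count filter in sham alone, and its log2 ratio ranked 353 of 18569 from the highest. Cxcl16 overlaps Zmynd15 on the opposite strand, with 16.9% of its 50-base stretches shared, and the effect of this on its counts was not tested. Zmynd15 gave 140, 22 and 34 counts across the I/R replicates, against 14, 21 and 23 across the sham replicates. Monocyte and macrophage markers moved beside Cxcl16: their sum was 69.6, 25.5 and 33.4 CPM in I/R and 6.53 to 8.93 CPM in sham, with 5 of 7 called higher (Ccr2, Lyz2, F13a1, Chil3 and Arg1), of which Ccr2, Chil3 and Arg1 passed the filter only through I/R. The order of the I/R libraries was the same for this sum and for Cxcl16. Of the called markers, Lyz2 and Arg1 had that order. F13a1 and Chil3 were lowest in I/R replicate 3, and Ccr2 was highest there. The part of these cells was not tested.

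Cx3cl1 (chromosome 8, 92544755 to 92555161, plus strand) had the highest level per length of all 10 members in both groups and fell after I/R. It gave 8995, 13422 and 13081 counts across the I/R replicates, against 22709, 26352 and 21748 across the sham replicates. In CPM these were 198, 336 and 327 (I/R) against 582, 648 and 632 (sham). Every I/R library lay below every sham library, and I/R replicate 1 was lowest. The mean was 287 ± 77.4 CPM (I/R) against 621 ± 34.8 CPM (sham), as mean ± SD of 3 libraries each, with a log2 ratio of -1.11 ± 0.20 SE (95% confidence interval -1.58 to -0.65, adjusted p = 0.00394 by edgeR). It ranked 771 of 18569 from the lowest log2 ratio.

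Neuron markers fell with Cx3cl1. The sum of Rbfox3, Tubb3, Syt1 and Snap25 was 1237, 2274 and 2502 CPM (I/R) against 4720, 4710 and 4502 CPM (sham). Of these markers 4 of 4 were called lower, against 19.9% of all genes tested, with a median log2 ratio of -1.14. Cx3cl1 divided by this sum was 0.160, 0.148 and 0.131 (I/R) against 0.123, 0.138 and 0.140 (sham), so the ratios of the groups overlapped. Syt1 and Snap25 made up most of the sum, and the ratio depends on the markers used. The log2 ratios were -0.75 for Rbfox3, -1.02 for Tubb3, -1.26 for Syt1 and -1.30 for Snap25, beside -1.11 for Cx3cl1. The part of neuron number in the fall was not tested.

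**Figure D2:**
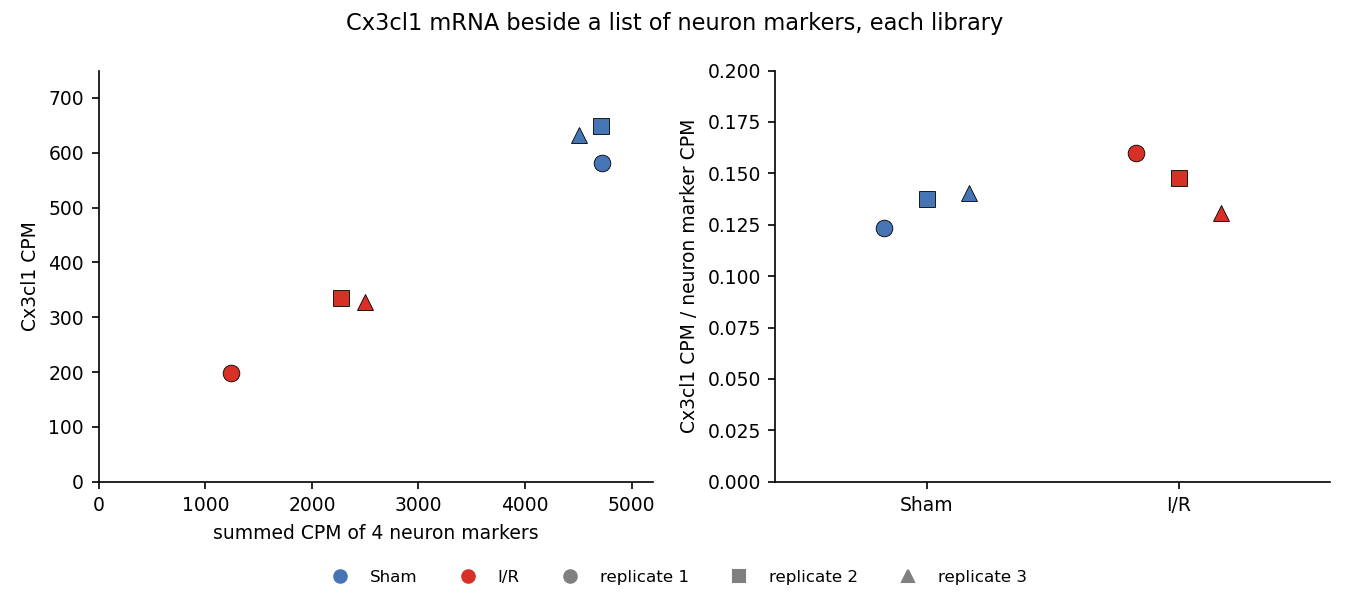
Left, Cx3cl1 CPM against the summed CPM of 4 neuron markers in each library. Right, the ratio of the 2 values by group. Syt1 and Snap25 make up most of the marker sum. The I/R libraries lie at lower values of both on the left, with I/R replicate 1 lowest, and the ratios of the groups overlap on the right, at 0.131 to 0.160 in I/R and 0.123 to 0.140 in sham.

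**Figure D3:**
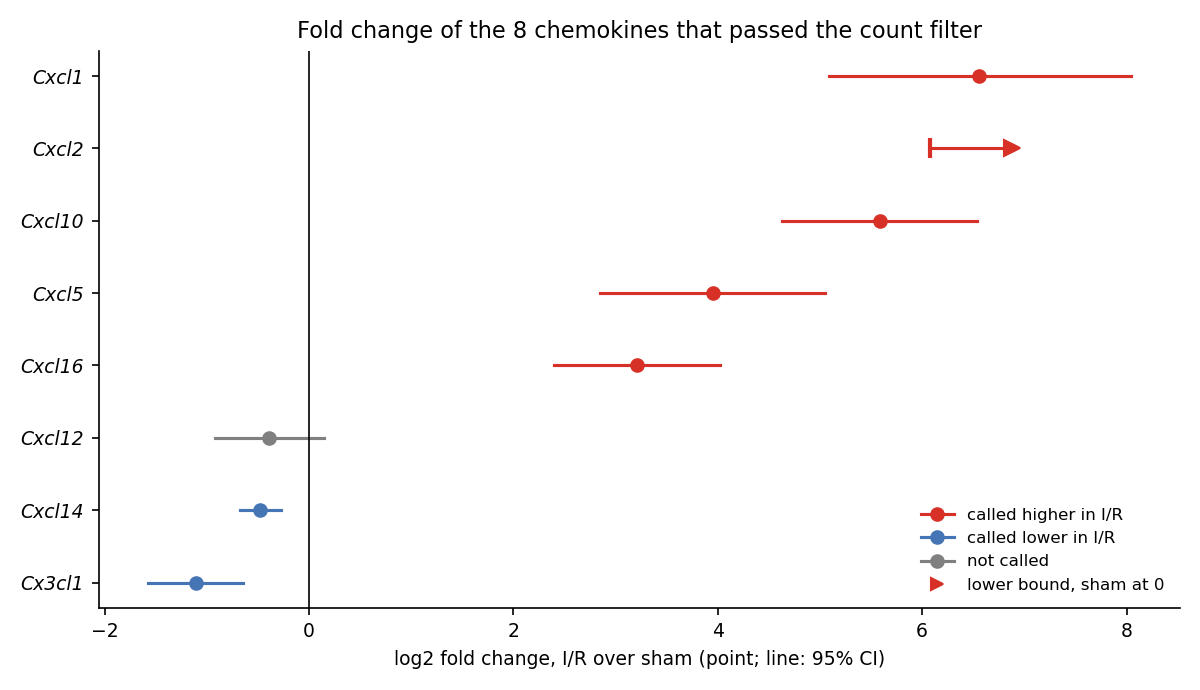
Log2 ratio of I/R over sham for the 8 chemokines that passed the count filter, from edgeR, with 95% confidence intervals as lines. For Cxcl2, at 0 counts in sham, the tick marks the lower bound of 6.08 on the log2 scale and the arrow points to higher values. No interval is drawn for Cxcl2. Intervals of the other genes called higher lie above 2, that of Cxcl12 spans 0, and those of Cxcl14 and Cx3cl1 lie below 0.

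The I/R libraries differed from each other in a way that depended on the gene. I/R replicate 1 was the highest of the 3 for Cxcl1, Cxcl2, Cxcl10, Cxcl12 and Cxcl16 and the lowest for Cxcl14 and Cx3cl1, whereas replicate 2 was the highest for Cxcl5. Cxcl10 and Cxcl16 were lowest in replicate 2, and Cxcl1, Cxcl2 and Cxcl5 in replicate 3. Among the sham libraries, replicate 1 was the highest for Cxcl1, Cxcl5 and Cxcl10 and the lowest for Cxcl16 and Cx3cl1. Per count of Cxcl1, there were 0.354, 0.301 and 0.796 counts of Cxcl10 and 0.505, 0.379 and 1.09 counts of Cxcl16 in I/R replicates 1, 2 and 3.

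**Figure D4:**
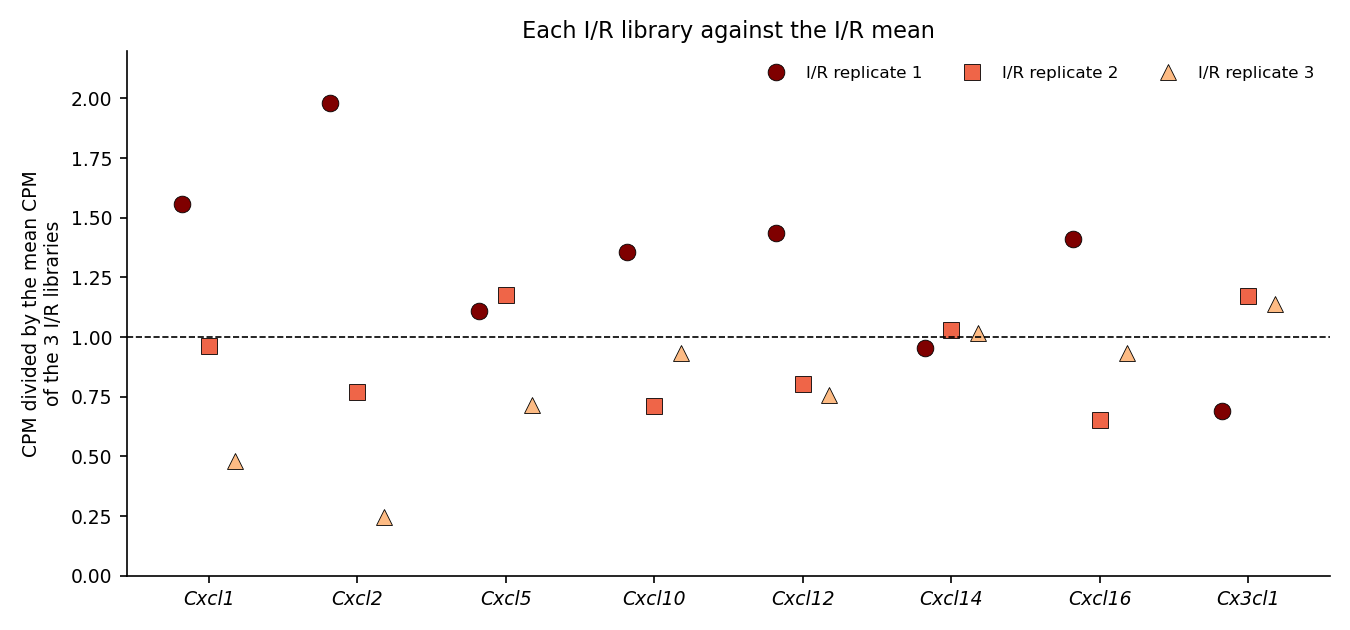
CPM of each I/R library divided by the mean CPM of the 3 I/R libraries, for the 8 chemokines that passed the count filter. Cxcl2 spread most, from 0.247 to 1.98 of its mean, and Cxcl14 least, from 0.953 to 1.03, and the dashed line marks the mean.

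Levels of different genes were compared per length, as the deposited FPKM (fragments per kilobase of gene and mapped library). In all libraries of a group Cx3cl1 stood above Cxcl14 and Cxcl14 above Cxcl12. In sham the order was Cx3cl1 at 439 ± 22.1, Cxcl14 at 70.9 ± 4.58, Cxcl12 at 19.7 ± 1.67 and Cxcl16 at 0.660 ± 0.199 FPKM (SD, n = 3 each), each separated from the next in all libraries. Cxcl1, Cxcl5 and Cxcl10 followed at 0.142 ± 0.125, 0.141 ± 0.0966 and 0.127 ± 0.0692 FPKM and overlapped each other, Cxcl9 was at 0.0222 FPKM, and Cxcl2 and Cxcl13 were listed at 0. In I/R the order was Cx3cl1 at 240.1 ± 55.9, Cxcl14 at 60.7 ± 0.473, Cxcl12 at 18.2 ± 7.84 and Cxcl1 at 16.5 ± 9.62 FPKM. Next came Cxcl10 at 7.53 ± 2.82, Cxcl16 at 7.39 ± 3.18, Cxcl2 at 4.42 ± 4.11 and Cxcl5 at 2.68 ± 0.715 FPKM. In I/R, Cxcl12 overlapped Cxcl1 and lay above Cxcl10, Cxcl16, Cxcl2 and Cxcl5 in all libraries. Cxcl1, Cxcl10, Cxcl16 and Cxcl2 overlapped each other, and of these Cxcl2 also overlapped Cxcl5, whereas the others lay above it. Cxcl13 (0.368 FPKM) and Cxcl9 (0.00551 FPKM) lay below. Cx3cl1 made up 82.7% of the summed FPKM of the 10 chemokines in sham and 67.1% in I/R, but 67.3% and 48.5% when the gene lengths listed in the table were used. The gene length behind the FPKM was not always the length listed in the table (1294 against 3306 bases for Cx3cl1), and with those lengths Cxcl12 and Cxcl1, and Cxcl10 and Cxcl16, changed places in I/R, as did Cxcl1 and Cxcl5 in sham.

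Among named genes tested, those with the most similar profile over the 6 libraries were found by the root mean square difference of log2 CPM, each gene centred on its mean, over 16171 genes. Cxcl14 lay nearest to Mtss1l (0.0286) and Eml2 (0.0295), Cx3cl1 to Pianp (0.0359) among those given here, and Cxcl12 to Lims2 (0.0987) and Celsr1 (0.108). Cxcl16 lay nearest to Slamf8 (0.110) and Ifitm1 (0.169). The genes that were low in sham had more distant neighbours: Cd244 (0.273) and Cd14 (0.299) for Cxcl10, Gprc5a (0.295) and Ch25h (0.353) for Cxcl5, Slc10a6 (0.379) and Fcgr4 (0.416) for Cxcl1, and Cxcl3 (0.529) and Ucn2 (0.531) for Cxcl2.

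The remaining genes of the chemokine system were described from lists by role. Of 34 such genes in the table, 23 were tested, 17 were called higher, 1 lower and 5 were not called, where 21.8% of all tested genes were higher and 19.9% lower. Of the 17 higher, 13 passed the count filter in sham alone and 4 (Cxcl3, Tnf, Il1a and Il1b) only through I/R. The p-values and intervals of those 4 are a description too. The ligands of the same family that are not members gave 2 tested genes of 6, both higher. Cxcl3, a Cxcr2 ligand beside Cxcl1 and Cxcl2, gave 199, 77 and 40 counts across the I/R replicates, against 0 for every sham library, at least 30.7-fold higher in I/R (adjusted p = 0.00263 by edgeR) and at least 18.5-fold without I/R replicate 1. Its I/R replicates were in the same order as those of Cxcl1 and Cxcl2. Pf4 (Cxcl4), a platelet and macrophage chemokine, gave 519, 239 and 150 counts across the I/R replicates, against 30, 27 and 15 across the sham replicates (log2 ratio 3.49 ± 0.46 SE, adjusted p = 0.00124 by edgeR). Ppbp (Cxcl7), another platelet chemokine, gave 24, 21 and 5 counts across the I/R replicates, against 0, 2 and 1 across the sham replicates and was not tested. Of the platelet markers 1 of 3 tested, Itga2b, was called higher, and the list summed to 7.78 to 14.3 CPM in I/R and 3.58 to 3.72 CPM in sham. Most of that sum was Itga2b, at 6.40 to 12.5 CPM in I/R and 2.41 to 2.68 CPM in sham, and Gp9 and Gp1ba were not called. Cxcl11 and Cxcl17 had at most 7 counts in any library and Cxcl15 had 0 in all.

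Of 9 receptors, 5 were tested, 2 were called higher, 1 lower and 2 were not called. Cxcr2, the receptor of Cxcl1, Cxcl2 and Cxcl5, gave 87, 10 and 9 counts across the I/R replicates, against 0 for every sham library, mostly from I/R replicate 1, and did not pass the filter. Ackr3, the scavenging receptor of Cxcl12, rose from 14.1 ± 1.51 to 21.6 ± 2.78 CPM (SD, n = 3 each), with a log2 ratio of 0.62 ± 0.14 SE (adjusted p = 0.00890 by edgeR). Cxcr4, the signalling receptor of Cxcl12, was at 4.38 ± 1.36 CPM (I/R) against 2.87 ± 0.784 CPM (sham) and was not called (log2 ratio 0.61, 95% confidence interval -0.07 to 1.29, adjusted p = 0.133 by edgeR). Cxcr5, the receptor of Cxcl13, gave 4, 21 and 17 counts across the I/R replicates, against 19, 2 and 5 across the sham replicates and was not called (adjusted p = 0.626 by edgeR). Cxcr3 and Cxcr6 had at most 7 counts in any library, and Cxcr1 had 0 in all.

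Cx3cr1, the microglial receptor of Cx3cl1, gave 3317, 1887 and 2605 counts across the I/R replicates, against 1596, 2059 and 1408 across the sham replicates. Its groups overlapped at 61.7 ± 13.2 CPM (I/R) against 44.2 ± 5.64 CPM (sham), as mean ± SD of 3 libraries each. The call of higher (log2 ratio 0.48, SE 0.17, adjusted p = 0.0489 by edgeR) was lost without I/R replicate 1 or 3 or any of the 3 sham libraries (adjusted p from 0.0610 to 0.157 by edgeR). Of the microglial markers, 2 of 6 were called higher (Aif1 among them) and 3 lower (P2ry12, Tmem119 and Siglech), and the list summed to 129 to 165.5 CPM in I/R and 142.5 to 157 CPM in sham. Ackr1, the blood chemokine receptor, was called lower at a log2 ratio of -0.31 (SE 0.09, adjusted p = 0.0275 by edgeR). That call was lost without I/R replicate 2 or any of the 3 sham libraries (adjusted p from 0.0645 to 0.0988 by edgeR), and with library size only the log2 ratio was -0.05 (adjusted p = 0.662 by edgeR).

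Of the enzymes that shed or cleave chemokines, 1 of 4 was called. Adam17, a sheddase of Cx3cl1, rose from 15.9 ± 1.47 to 25.6 ± 8.43 CPM (SD, n = 3 each), with a log2 ratio of 0.69 ± 0.22 SE (adjusted p = 0.0348 by edgeR). Without sham replicate 1, 2 or 3 it was not called (adjusted p from 0.0696 to 0.124 by edgeR). Adam10, which sheds Cx3cl1 and Cxcl16, was at 109.8 ± 1.31 CPM (I/R) against 110.5 ± 8.96 CPM (sham), a log2 ratio of -0.01 with a 95% confidence interval of -0.21 to 0.19. The gelatinases Mmp2 and Mmp9 were not called.

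The 4 factors that promote decay of chemokine mRNAs were all called higher, against 21.8% of all genes tested. Zfp36 (tristetraprolin), which binds AU-rich elements, rose from 6.21 ± 1.74 to 44.9 ± 14.4 CPM (log2 ratio 2.86 ± 0.28 SE, adjusted p = 0.000537 by edgeR). Zc3h12a (regnase-1), an RNase of inflammatory mRNAs, rose by 1.94 (SE 0.21) and Zfp36l2 by 0.70 (SE 0.11) on the log2 scale. Zfp36l1 rose by 1.24 (SE 0.42), and by 1.85 without sham replicate 1. Its call was lost without I/R replicate 2 or 3 or sham replicate 2 or 3 (adjusted p from 0.0866 to 0.137 by edgeR).

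Of the 6 cytokines that induce chemokine genes, 3 were tested and called higher, and all 3 passed the count filter only through the I/R libraries, so that this count is a description. Tnf gave 128, 42 and 129 counts across the I/R replicates, against 4, 1 and 0 across the sham replicates (log2 ratio 5.66 ± 0.78 SE, adjusted p = 0.00148 by edgeR), and its log2 ratio was 7.17 without sham replicate 1. Il1b gave 219, 39 and 66 counts across the I/R replicates, against 3, 7 and 9 across the sham replicates (log2 ratio 3.86 ± 0.73 SE, adjusted p = 0.00468 by edgeR), and its log2 ratio was 2.94 without I/R replicate 1. Neither cytokine shared the order of I/R libraries seen for Cxcl1. Il1b had the order of Cxcl10 and Cxcl16, with replicate 1 highest and replicate 2 lowest, and Tnf was highest in replicate 3. The part of these cytokines in the chemokine levels was not tested. Il1a rose by 1.52 (SE 0.48) on the log2 scale, a call lost without I/R replicate 2 or 3 or sham replicate 2 or 3 (adjusted p from 0.0515 to 0.124 by edgeR). Ifnb1 had 4 counts in 1 I/R library and Il17a had 0 in all.

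Of the transcription factors that bind chemokine promoters, 5 of 5 tested were called higher, against 21.8% of all genes tested. The NF-kB subunits Rela and Nfkb1 rose by 1.08 (SE 0.16) and 0.93 (SE 0.18) on the log2 scale, and Irf1, an interferon-induced factor, by 0.96 (SE 0.16). Irf3 rose by 0.51 (SE 0.13), not called without sham replicate 2 or 3 (adjusted p = 0.0507 and 0.0736 by edgeR).

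**Figure D5:**
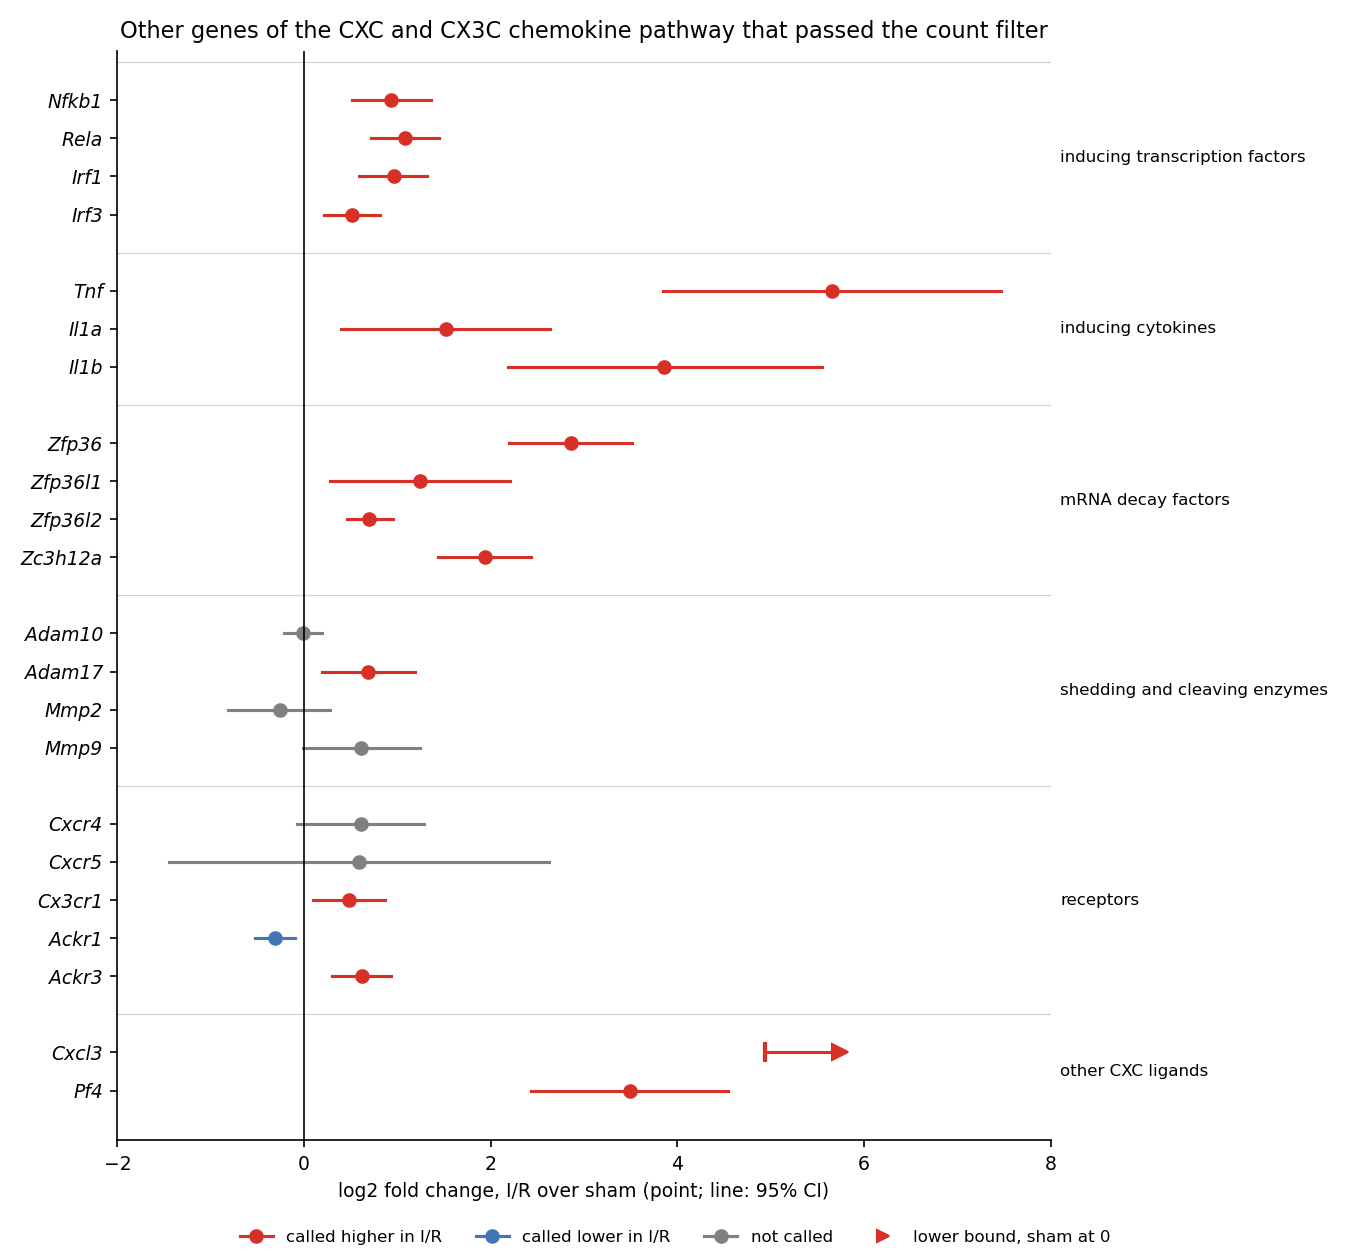
Log2 ratio of I/R over sham for 22 of the 23 tested genes of the chemokine system, grouped by role, from edgeR, with 95% confidence intervals as lines. For Cxcl3, at 0 counts in sham, the tick marks the lower bound of 4.94 on the log2 scale. Points of 16 genes are called higher, Ackr1 lies below 0, and 5 genes were not called.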

How the data were processed

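The members and all gene lists were chosen with earlier results of these data known. Per the methods, the authors mapped reads with TopHat on an Ensembl mouse genome and counted them per gene with HTSeq, and the deposited table gives these raw counts and FPKM, with replicates kept apart. The labels' processing notes name Bowtie 0.12.2 and the mm8 build, while gene identifiers and coordinates of the table are of the BALB/cJ strain, so reads of C57BL/6 mice (C57BL/6J in the methods) were counted on the annotation of another strain. Use of strand and treatment of reads with several places are not given in the sources used here. Columns with the authors' group means, fold changes, p-values and calls were not used.

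Groups and replicate numbers came from the sample titles. The 6 libraries entered 1 fit of the counts in edgeR 4.0.16 under R 4.3.3 (filterByExpr, TMM, robust quasi-likelihood F-test, no covariate). P-values were adjusted by Benjamini-Hochberg over 18569 genes. The fit was tested on simulated data in which far fewer genes changed than were called here, so that test does not cover the scaling. The fold limit of 1.2 was that of the study's plot. The SE is the log2 ratio (log2 fold change, I/R over sham) divided by the square root of F. PCR copies of a molecule could not be recognised, so floors describe counting error alone, while the intervals of log2 ratios include the scatter of the pools. An exact permutation of 3 against 3 cannot go below p = 0.1, and none is given. Alternatives were other scalings and filters, DESeq2 1.42.0, limma 3.58.1 on voom weights or log2 of FPKM plus 1 or 0.1, covariates, other call rules and each library left out. Named genes were all members, the called genes, ligands and receptors of the pathway lists, and the 2 nearest profiles of each member tested. Dpp4 and Nfkbiz of the pathway lists and the markers Ly6c2 (monocyte), Map2 (neuron), Hba-a1, Hbb-bs and Hbb-bt (erythrocyte) were not matched by name. A few named genes, which stay in the counts, are not reported here. No pair of libraries held identical values.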

Additional observations from a re-analysis of the deposited data

How the results depend on the processing

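No direction of a tested chemokine was reversed by an alternative. Of 7 chemokines called, 3 were called when at least 10 counts were asked of every library, where 4 were tested. With that filter 7247 of 16421 genes in all were called. With a fold change over 2, 9 genes of the chemokine system were called instead of 18 and 2760 of all genes instead of 7756, since that rule is stricter. Leaving out 1 library gave 7 to 8 called chemokines, 12 to 17 called genes of the system and 5330 to 7976 called genes in all. Cxcl12 was called lower only without I/R replicate 1, at -0.75. Cxcl14 was not called with library size only (-0.22) or on log2 of FPKM plus 1 (-0.22) or plus 0.1 (-0.22), and Cxcl2 was not called without a count filter (edgeR adjusted p of 0.0692), and the cause was not tested. Over all alternatives the adjusted p ran from 5.66e-08 to 0.0692 for Cxcl2, from 5.84e-06 to 0.745 for Cxcl12 and from 2.27e-05 to 0.0536 for Cxcl14. With library size only, 75.8% of all calls were higher, against 52.3% with TMM. That scaling called 6 of 8 chemokines and 8361 of 18569 genes in all. Replicate numbers were shared between groups, but libraries with the same number did not deviate together (correlations of -0.10, 0.06 and -0.18), so the numbers were not taken as pairs. With the replicate block, 7 chemokines, 13 genes of the system and 6332 genes in all were called. A further choice, made after seeing the data, kept only the 4 libraries with the most choroid plexus RNA. With them, 7 chemokines, 15 genes of the system and 5255 genes in all were called. Depth limited Cxcl9, Cxcl13, Cxcr2 and Ppbp, which were too low to test.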
